A study of Mus musculus with 7 samples.

Results

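The kallikrein (Klk), small proline-rich (Sprr) and late cornified envelope (Lce) genes were taken as the protein-coding genes whose symbols begin with Klk, Sprr or Lce followed by a member number or letter, which gave 62 of 21887 protein-coding genes. They comprise 26 Klk genes in a single cluster on chromosome 7, 14 Sprr and 21 Lce genes on chromosome 3, and Klkb1 on chromosome 8, which lies outside the clusters. The study profiled H3K27me3, the repressive mark of Polycomb Repressive Complex 2, and H3K27ac, a mark of active promoters and enhancers, by chromatin immunoprecipitation and sequencing (ChIP-seq). The cells were globose basal cells, the dividing progenitors of the olfactory epithelium, from wild-type adults lesioned with methimazole, which strips this epithelium, and dissected 7 to 10 days later. All libraries share that lesion and a magnetic selection for the receptor c-Kit, which other c-Kit-bearing cells could also pass. There were 2 libraries per mark, with 3 mice pooled for each, and every group was lesioned. The peak lists of these 4 libraries were used, and the 3 input libraries of the series were not analysed here.

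Kallikreins are secreted serine proteases. Several of them cut the junctions between dead cells at the skin surface so that the cells can be shed, and the rodent Klk1b genes are best known from the salivary glands. Sprr and Lce proteins, together with loricrin and involucrin, are cross-linked by transglutaminases into the cornified envelope, the tough layer beneath the membrane of surface keratinocytes, and their genes share the epidermal differentiation complex on chromosome 3. Neither a granular skin layer nor a salivary gland is part of the olfactory neuronal lineage.

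A gene carries a mark below if peaks of both libraries of that mark reach its body, or the 1 kb on either side of it, by at least 1 bp. Fold enrichment is the authors' ratio for a peak over its background, and for a gene the highest among its peaks is given. The values of replicates 1 and 2 can thus come from different peaks of a gene. Among Klk genes, the highest H3K27me3 peaks did not overlap at Klk5, Klk8, Klk11, Klk14, Klk15, Klk1, Klk1b3, Klk1b9, Klk1b16 and Klk1b21. The files hold no read totals, so depth is unknown, and absence of a peak holds only for the authors' threshold and these libraries. With 2 libraries against 2 an exact permutation test cannot give a two-sided p below 0.333, so counts and values are described without a test. Across the lists, H3K27me3 peaks covered 3.71% and 3.33% of the genome span in replicates 1 and 2, and H3K27ac peaks 4.08% and 3.16%. To set the cell label beside the peaks, lists of cell type genes were counted against the 67.5% of all protein-coding genes that carried H3K27ac and the 38.9% that carried H3K27me3. All 12 listed globose basal cell genes carried H3K27ac, led by the Polycomb gene Ezh2 at 21.3-fold and 16.4-fold and by Insm1 at 18.6-fold and 10.7-fold, with the selected receptor gene Kit at 6.80-fold and 5.46-fold. Among genes of other cells, H3K27ac was found at 6 of 8 horizontal basal cell genes, 7 of 7 sustentacular, 5 of 8 gland and respiratory, 2 of 9 keratinocyte or squamous and 2 of 8 mast cell genes, the last being Hdc and Gata2. For H3K27me3 the counts were 8 of 12 globose basal cell genes, 8 of 8 horizontal basal cell, 4 of 7 sustentacular, 7 of 8 gland and respiratory, 6 of 9 keratinocyte or squamous and 3 of 8 mast cell genes. These counts do not set the cell types apart, since the sustentacular genes were acetylated throughout as well. What other cells contributed to the peaks below was not tested.

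The sequences that the results turn on are shown first, as the 250 bases before the RefSeq transcript start, written 5′ to 3′ on the strand of the gene (GRCm38.p6). The first 4 belong to genes that carried H3K27me3, and capitals mark CG dinucleotides. They are Klk4 (chr7:43880910-43881159, plus strand), which had the highest mean fold enrichment of the cluster, Klk8 (chr7:43797327-43797576, plus strand), whose promoter window held the most CG, Klk1 (chr7:44225110-44225359, plus strand) and Lce1b (chr3:92656927-92657176, minus strand), which was singular among the Lce genes in carrying the mark. The stretch of Klk8 held 18 CG, that of Klk4 held 1, and those of Klk1 and Lce1b held 0. H3K27me3 peaks of both libraries reached into the stretches of Klk4, Klk8 and Klk1, whereas that of Lce1b lay under no peak.
Klk4: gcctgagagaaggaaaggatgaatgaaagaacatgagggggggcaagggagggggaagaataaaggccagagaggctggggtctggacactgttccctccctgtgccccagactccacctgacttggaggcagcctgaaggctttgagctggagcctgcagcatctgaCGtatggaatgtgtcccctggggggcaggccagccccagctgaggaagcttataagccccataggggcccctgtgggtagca
Klk8: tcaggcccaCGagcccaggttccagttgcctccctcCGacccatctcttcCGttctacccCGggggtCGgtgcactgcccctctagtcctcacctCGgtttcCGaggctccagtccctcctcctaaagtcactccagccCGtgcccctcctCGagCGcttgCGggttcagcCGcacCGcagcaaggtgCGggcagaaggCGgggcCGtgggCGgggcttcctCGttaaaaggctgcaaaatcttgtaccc
Klk1: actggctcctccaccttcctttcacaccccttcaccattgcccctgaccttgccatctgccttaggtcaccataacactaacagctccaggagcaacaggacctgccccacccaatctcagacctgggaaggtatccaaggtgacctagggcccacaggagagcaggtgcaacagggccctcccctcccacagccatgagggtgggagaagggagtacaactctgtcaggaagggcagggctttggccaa
Lce1b: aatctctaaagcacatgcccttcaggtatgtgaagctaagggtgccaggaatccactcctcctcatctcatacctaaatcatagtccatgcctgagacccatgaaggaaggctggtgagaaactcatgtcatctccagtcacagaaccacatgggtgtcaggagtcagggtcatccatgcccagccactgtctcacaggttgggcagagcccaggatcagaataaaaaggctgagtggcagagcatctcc

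The next pair sets the acetylated gene Sprr1a (chr3:92485882-92486131, minus strand) against its unmarked relative Sprr1b (chr3:92438780-92439029, minus strand). Capitals mark TATAAA, a core promoter motif, and TGANTCA, the motif of AP-1 factors. Sprr1a held 1 TATAAA and 2 TGANTCA in this stretch, and Sprr1b held 1 of each.
Sprr1a: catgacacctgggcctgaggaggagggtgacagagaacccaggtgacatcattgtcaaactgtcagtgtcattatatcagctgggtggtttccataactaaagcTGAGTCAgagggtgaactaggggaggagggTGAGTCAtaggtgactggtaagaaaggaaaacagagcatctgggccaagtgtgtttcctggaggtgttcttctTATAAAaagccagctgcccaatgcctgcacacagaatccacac
Sprr1b: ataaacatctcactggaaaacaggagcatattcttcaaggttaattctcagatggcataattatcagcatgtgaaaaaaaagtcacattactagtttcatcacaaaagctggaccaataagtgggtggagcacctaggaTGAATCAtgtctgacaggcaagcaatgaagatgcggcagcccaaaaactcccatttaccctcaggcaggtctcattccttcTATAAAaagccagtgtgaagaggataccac

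Most Klk genes carried H3K27me3 and few carried H3K27ac. H3K27me3 was found at 21 of 26 Klk genes, against 38.9% of all protein-coding genes and 30.7% of those of 20 kb or less (the median Klk gene spans 4607 bp). H3K27ac was found at 2 of 26, against 67.5% of all protein-coding genes and 54.9% of the short ones. In H3K27me3 replicate 1 every one of the 26 genes had a peak, against 58.8% of all and 49.3% of the short genes. In replicate 2 the number was 21, against 41.8% of all and 33.6% of the short genes. H3K27ac peaks touched 3 Klk genes in replicate 1, against 70.9% of all and 58.7% of the short genes, and 2 in replicate 2, against 68.9% and 56.2%. The peaks were of ordinary strength for their lists. Median fold enrichment over the Klk genes was 3.40 and 3.14 in replicates 1 and 2, against 3.46 and 3.21 over all peaks. Only Klk4 in replicate 1 passed a −log10 q of 5 (5.04). The peak threshold bore on these counts. A −log10 q of 2 or more left 8 of 26 genes with H3K27me3, against 22.5% of all genes, and 1 with H3K27ac, against 62.1%. A −log10 q of 5 or more left none with either mark, against 5.13% and 49.8%.

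**Figure D1:**
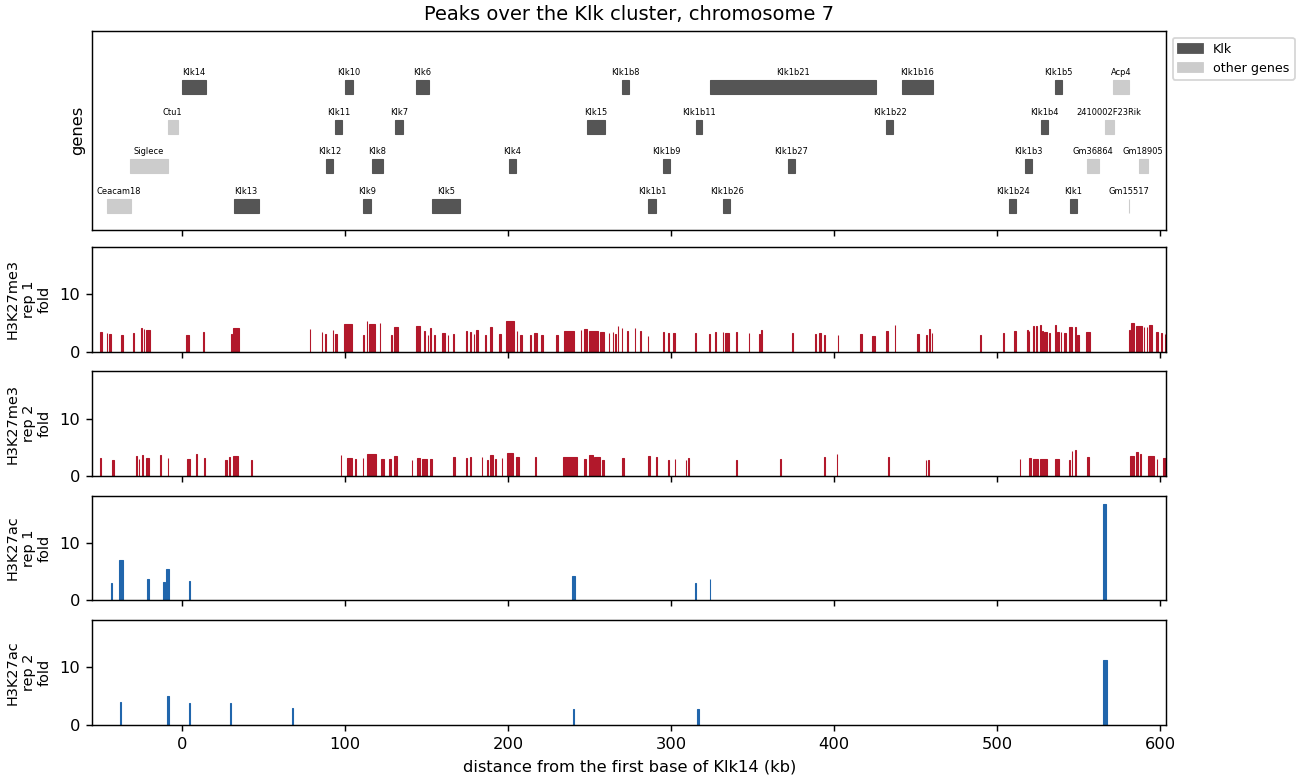
Fold enrichment of each peak (bars, as wide as the peak, linear axis) in the 4 libraries against distance from the first base of Klk14 in kb, with Klk genes in dark grey and other genes in light grey above. H3K27me3 bars recur across the cluster in both libraries, and H3K27ac bars are few within it. Taller H3K27ac bars stand left of Klk14 (up to 7.11 and 4.93) and at 2410002F23Rik on the right (16.9 and 11.2).

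Across the 549 kb from Klk14 to Klk1 (chromosome 7, 43680880 to 44229622), H3K27me3 covered 17.0% of bases in replicate 1 and 14.6% in replicate 2, while the whole of chromosome 7 was covered to 5.17% and 4.81%. H3K27ac covered 0.567% and 0.639% of the cluster against 5.43% and 4.21% of the chromosome. The H3K27me3 libraries shared 44 regions in the cluster, and the shared bases made up 49.9% of those in replicate 1 and 58.0% of those in replicate 2. H3K27me3 did not end with the cluster. The 50 kb beside Klk14 were covered to 13.99% and 9.50%, and the 50 kb beyond Klk1 to 25.1% and 19.0%. H3K27ac covered 14.8% and 4.28% of the 50 kb beside Klk14 and 3.13% and 4.67% of the 50 kb beyond Klk1. Of 12 listed genes near the cluster, 9 carried H3K27me3, against 38.9% of all genes, and 8 carried H3K27ac, against 67.5%, among them the synaptic scaffold gene Shank1 with both (10.3 and 5.78 for H3K27me3, 5.78 and 5.44 for H3K27ac). Between Klk1 and Acp4, 2410002F23Rik had H3K27ac at 16.9 and 11.2 and no H3K27me3 peak.

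The stretch from Klk14 to Klk15 was more densely covered than the Klk1 and Klk1b stretch. It spans 259 kb and was covered by H3K27me3 to 24.2% and 22.8% in replicates 1 and 2, whereas the 279 kb from Klk1b8 to Klk1 were covered to 10.4% and 7.57%. The values of the stretches did not overlap between libraries, although the division was made after the values were seen and was not tested. H3K27me3 was carried by 11 of the 12 genes of the first stretch and by 10 of the 14 of the second. Of all protein-coding genes 38.9% carried it, and 30.7% of those of 20 kb or less. With a −log10 q of 2 or more, 8 of the 26 Klk genes kept it, 2 of them in the second stretch, against 22.5% of all genes. The median gene window was covered to 34.2% and 34.4% in the first, and to 14.9% and 14.7% in the second. At the genes of the first stretch, the closest promoter window in the family was 45.7% to 53% identical. At the Klk1b genes of the second stretch it was 79.7% to 90.7% identical. How mappability bears on the difference between the stretches was not tested. Across the 26 genes the covered share correlated between replicates (Pearson's r = 0.71, Spearman's rho = 0.61), a description in which neighbouring genes share peaks and longer windows hold more sequence.

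**Figure D2:**
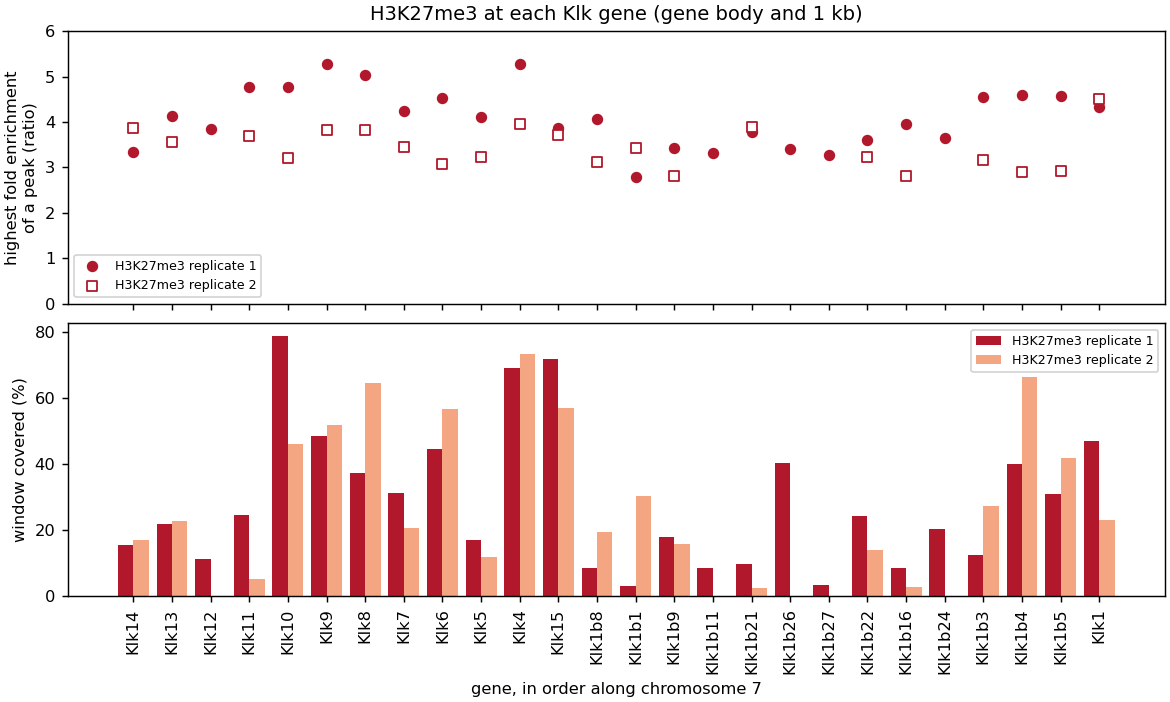
Highest fold enrichment of an H3K27me3 peak (top, points, linear ratio) and covered share of the gene body and 1 kb (bottom, bars) for each Klk gene in order along chromosome 7, replicate 1 filled or dark and replicate 2 open or light. A missing square is a gene with no peak in replicate 2, and the tallest bars are those of Klk10 (78.8%) in replicate 1 and Klk4 (73.5%) in replicate 2.

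Among the proteases of skin and other barriers, Klk4, the enamel matrix protease, stood first. Its H3K27me3 peak stood at 5.29-fold in replicate 1 and 3.96-fold in replicate 2 and ran from 43879738 to 43884561 and from 43880203 to 43884057, over the transcript start and most of the gene. Both libraries covered about the same part of the Klk4 window, 69.2% and 73.5%. Klk9 followed at 5.27 and 3.83. Klk8, which encodes neuropsin, a protease of brain and skin, stood at 5.05 and 3.83. The 5.05 came from a peak of 260 bp that no peak of replicate 2 overlapped. A peak of 3858 bp in replicate 1 (4.79) and 5777 bp in replicate 2 (3.83) joined the end of Klk9 to the start of Klk8. These neighbours therefore do not count independently. Klk11 stood at 4.78 and 3.69 and Klk10 at 4.78 and 3.22, where a single peak of replicate 1 again served both. In replicate 2 the peak at Klk11 lay elsewhere, and no base of the Klk11 window was covered in both libraries. Klk13 stood at 4.14 and 3.57.

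Klk5, Klk7 and Klk14 encode the proteases best known for shedding skin cells, and all carried H3K27me3, against 38.9% of all genes. None of them kept it at a −log10 q of at least 2. The highest −log10 q was 1.61 at Klk5 and 1.87 at Klk7 in replicate 2, and 1.93 at Klk14 in replicate 1. Fold enrichment was 4.10 and 3.24 at Klk5, 4.25 and 3.44 at Klk7, and 3.34 and 3.87 at Klk14 in replicates 1 and 2. At Klk5 and Klk14 the values of the libraries came from peaks that did not overlap. The 4.10 at Klk5 came from a peak before the gene that reached only its 1 kb margin and was also counted at Klk6. At Klk7 the peaks of both libraries covered the promoter, and at Klk5 only another peak of replicate 1 (3.18) did. Klk6, a protease abundant in the central nervous system, stood at 4.53 and 3.08, and Klk15 at 3.87 and 3.71 with 6176 bp covered in both libraries, the most of any Klk gene. Klk12 was the exception in this stretch, with peaks in replicate 1 (3.84) and none in replicate 2.

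Klk14 was the only Klk gene with both marks. Its H3K27ac peaks, at 3.39-fold in replicate 1 and 3.87-fold in replicate 2, shared 671 bp, from 43685175 to 43685845. The H3K27me3 peak of replicate 2 (43683952 to 43685903) held all of this stretch, and that of replicate 1 (43683158 to 43685323) reached only its start, so that 149 bp were covered in all 4 libraries. These H3K27me3 peaks were near the threshold, at 2.84-fold in replicate 1 (−log10 q 1.33) and 3.00-fold in replicate 2 (−log10 q 1.31). The higher H3K27me3 values given above for Klk14 came from other peaks of the gene. The shared H3K27ac stretch lies inside the gene model and before the RefSeq transcript start used here, whose window begins at 43690168. Beside it, H3K27ac was shared by both libraries within the cluster at a second place only, a 970 bp stretch from 43920539 that overlaps no protein-coding gene.

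In the Klk1 and Klk1b stretch the mark was patchier. Klk1, tissue kallikrein, which releases kinins from kininogen, stood at 4.32 and 4.51 for H3K27me3 and was covered to 47.1% and 23.0%. Klk1b3 and Klk1b4 encode subunits of the nerve growth factor complex of the salivary gland. H3K27me3 stood at 4.54 and 3.16 at Klk1b3 and at 4.59 and 2.90 at Klk1b4. Klk1b5, their neighbour, stood at 4.56 and 2.92. The 4.54 at Klk1b3 came from a peak past the end of the gene that reached only its 1 kb margin. Inside Klk1b3 the highest peak of replicate 1 stood at 3.82. These genes form a run from Klk1b3 to Klk1 in which every gene carried the mark in both libraries, against 38.9% of all genes. In replicate 2 the highest −log10 q was close to the threshold at Klk1b4 (1.19) and Klk1b5 (1.21), and at Klk1b3 it was also below 2. With a −log10 q of 2 or more in both libraries, only Klk1 of this run kept the mark, against 22.5% of all genes. At the other end, Klk1b8 stood at 4.06 and 3.12 and Klk1b1 at 2.80 and 3.43, with 33 and 199 bp covered in both libraries. Klk1b16, which encodes gamma-renin, stood at 3.95 and 2.81. Between them, Klk1b24, Klk1b26 and Klk1b27 had peaks in replicate 1 only, at 3.64, 3.40 and 3.27. Klk1b22 and Klk1b9, whose products bind epidermal growth factor, stood at 3.60 and 3.23 and at 3.44 and 2.82. The gene model of Klk1b21 spans 101968 bp and takes in several neighbours, so its peaks (3.79 and 3.90) cannot be assigned to it. It is counted in all Klk totals given here. Without it, H3K27me3 was found at 20 of 25 Klk genes and at 9 of 13 in this stretch, against 38.9% of all genes. With a −log10 q of 2 or more, H3K27me3 was then found at 7 of 25 Klk genes and at 1 of 13 in this stretch, against 22.5% of all genes. With Klk1b21 counted, that limit left 2 of the 14 genes of the stretch.

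Klk1b11 carried H3K27ac by the rule, but its libraries did not overlap. The peak of replicate 1 ran from 43995732 to 43996117 (fold enrichment 3.01) and that of replicate 2 from 43996770 to 43997807 (2.75, with a −log10 q of 1.02, close to the threshold). An H3K27me3 peak of replicate 1 (3.32) overlapped the first. When the libraries had to share bases, Klk14 was the sole Klk gene with H3K27ac and 20 Klk genes had H3K27me3. The Klk1b promoters are close copies. The promoter window of Klk1b4 was 90.7% identical to that of Klk1b5, and that of Klk1b11 was 90% identical to that of Klk1b16, so peaks at these genes are uncertain as to the copy. Mappability was not analysed here.

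Over RefSeq promoter windows, from 250 bases before to 50 after the transcript start, H3K27me3 of both libraries covered 12 of 26 Klk genes, against 18.8% of the 17492 protein-coding genes with such a window. H3K27ac of both libraries covered none of the 26, against 58.1%. The 12 comprised 7 of the genes from Klk4 to Klk15 and 5 of the Klk1 and Klk1b genes. Around the transcript start the mean covered share of the Klk genes was 45.1% in the 500 bp before it and 53.0% in the 500 bp after it in replicate 1, and 22.2% and 36.7% in replicate 2. Over all genes it was 28.6% and 19.4% just after the start. From 3000 to 3500 bp into the gene, Klk genes were still covered to 40.4% and 26.3%, against 8.74% and 7.73% of all genes.

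**Figure D3:**
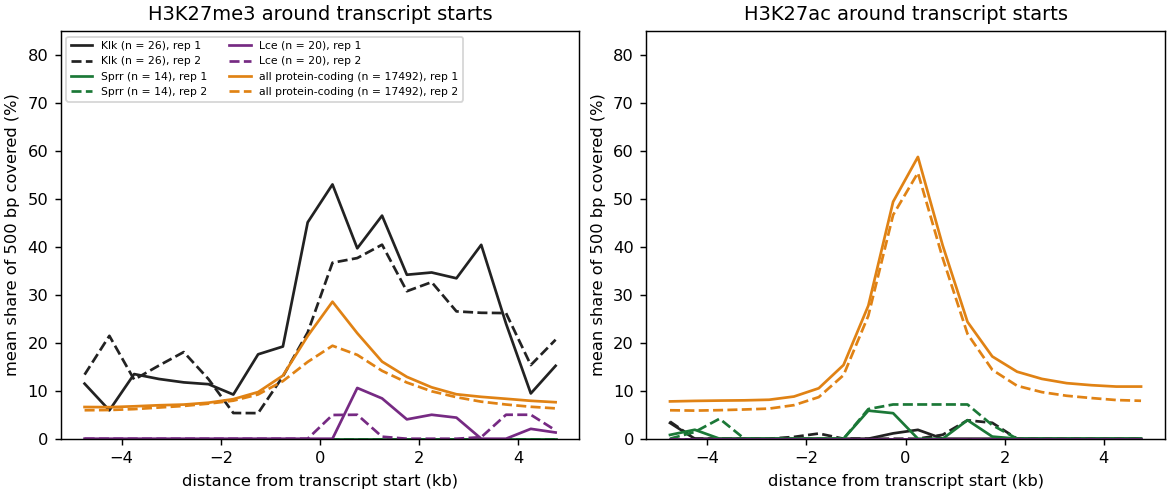
Mean share of each 500 bp step covered by peaks against distance from the transcript start in kb, for H3K27me3 (left) and H3K27ac (right), replicate 1 solid and replicate 2 dashed, for Klk, Sprr, Lce and all protein-coding genes with a RefSeq promoter window. The H3K27me3 lines of the Klk genes lie above those of all genes from the start to 4 kb beyond it, and the H3K27ac lines of the 3 families lie below them near the start.

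The Klk promoters were poor in CG. Their 28 windows held a median of 2 CG per 300 bases, against 13 over all protein-coding genes, with a range from 0 to 23, the highest at Klk8. The division at 4 CG was chosen after the values were seen. Of the 21 Klk genes with at most 4 CG in each window, 8 had the window under H3K27me3 in both libraries, whereas 5.55% of the 4811 protein-coding genes of that kind did. Of the 5 Klk genes above that limit 4 did, against 23.9% of 12681 genes. GGGCGG, a GC box, was found on either strand in 6 of 28 Klk windows, against 46.2% of all windows. Median GC content was 55.8%, close to the 56.3% over all genes.

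The epidermal differentiation complex looked different. Of 14 Sprr genes none had an H3K27me3 peak in either library, and of 21 Lce genes 1, Lce1b, carried H3K27me3, against 38.9% of all protein-coding genes and 30.7% of those of 20 kb or less. The median Sprr gene spans 1687 bp and the median Lce gene 1655 bp, against 6326 bp for genes of 20 kb or less. H3K27ac was found at 1 Sprr gene, Sprr1a, and at no Lce gene, against 67.5% of all and 54.9% of the short genes. In none of the 4 libraries was there a peak at 13 Sprr and 13 Lce genes, a state shared by 16.6% of all and 26.3% of the short genes. The Sprr cluster spans 285 kb (chromosome 3, 92215835 to 92500493) and was covered by H3K27me3 to 0% in both libraries. The Lce cluster spans 414 kb (92604821 to 93019061) and was covered to 1.20% and 0.660%. Chromosome 3 as a whole was covered to 1.62% and 1.47%. H3K27ac covered 0.381% and 1.06% of the Sprr cluster and 0.260% and 0.135% of the Lce cluster, against 2.70% and 2.21% of chromosome 3.

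**Figure D4:**
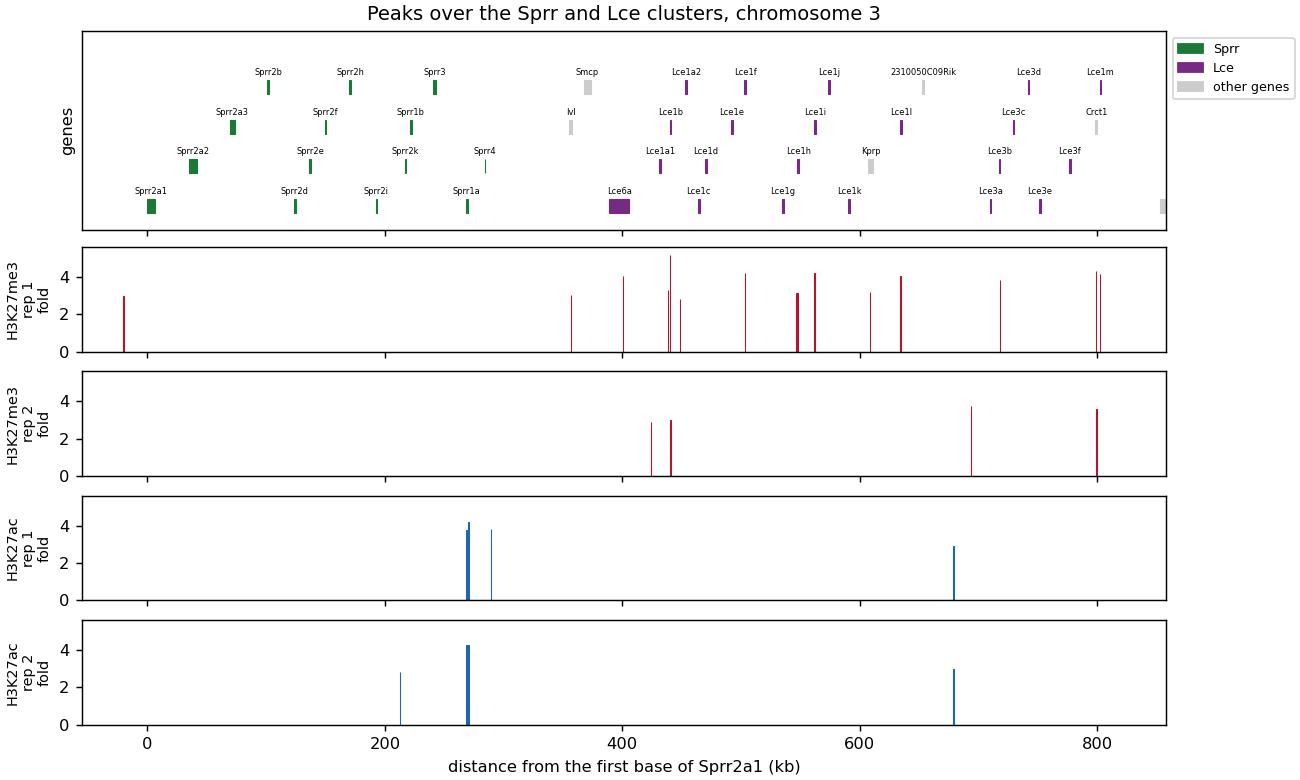
Fold enrichment of each peak (bars, as wide as the peak, linear axis) in the 4 libraries against distance from the first base of Sprr2a1 in kb, with Sprr genes in green, Lce genes in purple and other genes in light grey above. The Sprr cluster holds no H3K27me3 bar, the Lce cluster holds thin bars mostly in replicate 1, and the H3K27ac bars at Sprr1a recur in both libraries (4.20 and 4.26).

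Sprr1a encodes an envelope precursor that is also known for its induction in injured neurons. In H3K27ac replicate 1 it had a peak of 783 bp from 92486009 to 92486791 (fold enrichment 4.20, −log10 q 4.74), which reached into the promoter stretch printed above, and a second of 302 bp inside the gene (3.77). In replicate 2 a single peak of 2631 bp from 92484184 to 92486814 covered most of the gene and ran over its promoter (4.26, −log10 q 3.69). These values lay at the 66.2 and 74.7 percentile of their lists. Sprr1a was the only Sprr gene whose promoter window was under H3K27ac in both libraries, and it kept the mark at a −log10 q of at least 2 but not at 5. The neighbours Sprr3 and Sprr4, and the closest relative Sprr1b, had no peak in any library.

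The 10 Sprr2 genes, which encode the largest branch of the family, had no peak in any library. Copies are most alike here. The promoter windows of Sprr2a1 and Sprr2a2 were 100% identical and that of Sprr2a3 was 90.7% identical to Sprr2a1, so the lack of peaks at these copies is uncertain. At Sprr1a and Sprr3 the closest window in the family was 53.3% and 50.3% identical. TGANTCA was found in 9 of 14 Sprr windows, against 6.99% of all windows, and in none of 20 Lce and 28 Klk windows. TATAAA on either strand was found in 10 of 14 Sprr and 4 of 20 Lce windows, against 12.6% of all. Sprr1a held both motifs, and so did 8 Sprr genes with no peak, Sprr1b among them. Sprr windows held a median of 1 CG.

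Lce proteins enter the cornified envelope late. At Lce1b the H3K27me3 peaks ran from 92655672 to 92656092 in replicate 1 (fold enrichment 5.19, −log10 q 4.81) and from 92655885 to 92656921 in replicate 2 (3.03, −log10 q 1.34), and they shared 208 bp inside the gene. The peak of replicate 2 alone touched the promoter window. In replicate 1 taken alone, 7 further Lce genes had an H3K27me3 peak, which gave 8 of 21 against 58.8% of all and 49.3% of the short genes. They were Lce6a (4.04), Lce1f (4.21), Lce1h (3.13), Lce1i (4.24), Lce1l (4.04), Lce3b (3.86) and Lce1m (4.14), and none had a peak in replicate 2. The 8 peaks were short, with a median of 299 bp against 585 bp for the list, and had a median fold enrichment of 4.09 against 3.46. In replicate 2, Lce1b was the only Lce gene with a peak, against 41.8% of all and 33.6% of the short genes. Lce windows held a median of 1 CG, and none of the 20 was covered by H3K27me3 in both libraries. Lce1f had no window. The Lce genes with no peak in any library were Lce1a1, Lce1a2, Lce1c, Lce1d, Lce1e, Lce1g, Lce1j, Lce1k, Lce3a, Lce3c, Lce3d, Lce3e and Lce3f.

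**Figure D5:**
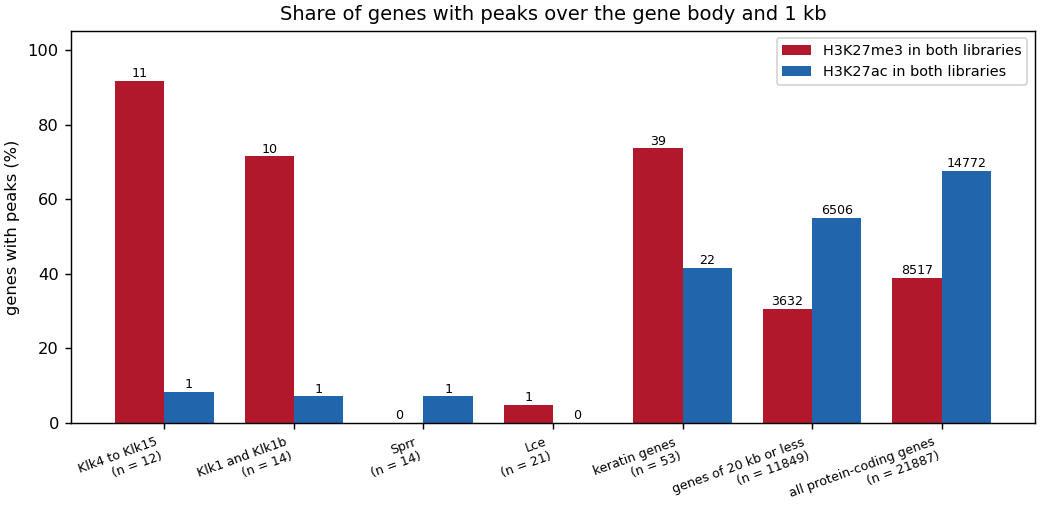
Percent of genes with peaks in both libraries of H3K27me3 (red) and H3K27ac (blue) over the gene body and 1 kb, with the number of genes above each bar and the group size below. The Klk bars for H3K27me3 (11 of 12 and 10 of 14) stand above those of all protein-coding genes, and the Sprr and Lce bars of both marks stand below them.

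Among the other genes of the epidermal differentiation complex, 4 of 18 carried H3K27me3, against 38.9% of all genes, and 5 carried H3K27ac, against 67.5%. These 18 take in S100a10, with both marks, and S100a11, with H3K27ac at 10.0 and 7.54. The loricrin gene Lor, which lies before the Sprr cluster, carried both marks at 5.70 and 3.44 for H3K27me3 and at 7.72 and 5.64 for H3K27ac. Tchh, the hair follicle protein trichohyalin, also carried both, at 10.6 and 6.95 and at 3.79 and 3.76. Crct1, which lies among the Lce genes, carried H3K27me3 alone at 4.30 and 3.58. The involucrin gene Ivl and the filaggrin gene Flg had an H3K27me3 peak in replicate 1 only (3.01 and 2.88), and Hrnr, Rptn and Crnn had no peak. A separate list of 12 S100 calcium-binding protein genes of the complex, without S100a10 and S100a11, held 9 with H3K27ac and 4 with H3K27me3. S100a1 stood at 13.5 and 10.6 for H3K27ac.

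Genes that act on the same barrier from other loci were mixed. Of 15 genes for envelope cross-linking and shedding, 7 carried H3K27me3 and 7 H3K27ac, against 38.9% and 67.5% of all genes. The transglutaminase gene Tgm1 and the junction protein gene Cdsn, a kallikrein substrate, carried both, with H3K27me3 at 4.49 and 3.30 and at 4.71 and 3.59. F2rl1, a receptor that kallikreins can activate, stood highest, at 14.2 and 9.48 for H3K27ac, followed by the membrane protease gene St14 at 11.3 and 7.14. Of 7 inhibitor genes 2 carried H3K27me3 and 1 H3K27ac, the latter being Serpine2 (13.3 and 6.20). Spink5, the skin inhibitor of kallikreins, had a peak in H3K27me3 replicate 2 only (3.46). Of 14 transcription factors that drive barrier genes, 12 carried H3K27me3, 13 carried H3K27ac and 11 both. Among all genes the shares were 38.9% and 67.5%, and 6127 of 21887 carried both. Klf4 stood at 5.27 and 4.59 for H3K27me3 and at 12.4 and 7.13 for H3K27ac, and Gata3 at 12.1 and 7.20 for H3K27me3. Trp63 stood at 4.49 and 3.30 for H3K27me3 and at 3.11 and 3.76 for H3K27ac.

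Klkb1, plasma prekallikrein of the liver, shares a name with the tissue kallikreins and lies on chromosome 8 (45266688 to 45294835). It had no H3K27me3 peak and carried H3K27ac inside the gene, at 5.60-fold in replicate 1 and 4.72-fold in replicate 2, with the strongest peak from 45277768 to 45278401 and from 45277789 to 45278439. Its promoter window was under no peak.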

How the data were processed

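Per the submitters' processing notes, reads were handled with fastp, Bowtie, Picard and MACS2 on GRCm38, also named mm10. Tool versions are not given in the sources used here. For each immunoprecipitated library the authors deposited 1 broad-peak list with 9 columns and no header. The deposited columns include fold enrichment, a linear ratio over background. The −log10 p-value and −log10 q-value were deposited beside it, the q column starting just above 1, with a score that is 10 times that q column without its decimals. All are the authors' values, used here only within each list. The labels state that 3 mice were pooled for each replicate, and an input is labelled for both H3K27me3 replicate 1 and H3K27ac replicate 2. Depth is unknown.

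Overlaps were computed with Python 3.11.15, pandas 2.3.3 and numpy 2.4.6, and were tested on simulated peaks. Genes and promoter windows came from RefSeq tables of GRCm38.p6. Windows were matched for 61 of the 62 genes, and for genes with more than 1 window any counted. Window identity is the count of identical bases in a global alignment over 300 bases. TATAAA and GGGCGG were searched on both strands, and TGANTCA, where N is any base, reads the same on both. Members, gene lists and tests were chosen with earlier results of these data known. Named members are up to 8 per family and mark with the highest mean fold enrichment, those with both marks, those between marked and unmarked genes, and those with no peak by count. Of each list, at most 6 genes are named by rule, those with the highest mean fold enrichment of either mark. Kit, Tgm1, Cdsn, Spink5, Trp63, Ivl, Flg, Hrnr, Rptn and Crnn, and other genes and positions, were named after their values were seen. The alternatives were a −log10 q of at least 2 or 5, 500 bp covered, a peak in either library, each library alone, other windows and spans, and, added after seeing the data, bases shared between libraries, spans in each library alone and Klk counts without Klk1b21.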

Additional observations from a re-analysis of the deposited data

How the results depend on the processing

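Counts of genes depended on the peak threshold. With a −log10 q of 2 or more, H3K27me3 was found at 8 Klk and 0 Lce genes and H3K27ac at 1 Klk gene, while H3K27me3 covered 6.93% of the Klk and 0.494% of the Lce cluster and H3K27ac 0.330% and 0%. With a −log10 q of 5 or more, the counts were 0 Klk and 0 Lce genes for H3K27me3 and 0 Klk and 0 Sprr genes for H3K27ac. Of all genes, 22.5% carried H3K27me3 and 62.1% H3K27ac at a limit of 2, and 5.13% and 49.8% at a limit of 5. With 500 bp covered, 1 Klk gene had H3K27ac and 0 Lce genes had H3K27me3. Klk genes with H3K27ac numbered 1 with windows of 1 kb around gene ends, and 1 when the libraries had to share bases. Lce genes with H3K27me3 numbered 8 with a peak in either library and 2 with a margin of 5 kb.

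With 50 kb added on each side, H3K27ac covered 1.55% of the Klk span and H3K27me3 0.0716% of the Sprr span. In each library alone, H3K27me3 was found at 21 to 26 Klk, 0 to 0 Sprr and 1 to 8 Lce genes, the 8 being without replicate 2, and H3K27ac at 2 to 3 Klk, 1 to 1 Sprr and 0 to 0 Lce genes. The covered shares then ran from 14.6% to 17.0%, 0% to 0% and 0.660% to 1.20% for H3K27me3, and from 0.567% to 0.639%, 0.381% to 1.06% and 0.135% to 0.260% for H3K27ac. The Klk count for H3K27me3 was 17 to 26 under the window, overlap and library alternatives, and that for Sprr was 0 under all alternatives. For H3K27me3 the share of all genes was 58.8% in replicate 1 alone and 41.8% in replicate 2 alone. It was not computed for the other window and overlap settings, so the counts at those settings have no background beside them. No paired analysis was possible because the counts come from no test and equal replicate numbers share no input. Unknown depth limits every statement about a missing peak.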

Other observations

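Pseudogenes of the family were not members, but the longest stretch that both H3K27me3 libraries shared in the Klk cluster covered such a gene. Klk2-ps (chromosome 7, 43915167 to 43920755) was covered to 100% in both libraries, at a fold enrichment of 3.62 and 3.37, within a shared region of 6221 bp from 43914963 to 43921183. H3K27ac peaks of both libraries (4.31 and 2.75) reached into its far end, covering 11.5% and 3.88% of it. Among the Klk1b pseudogenes, Klk1b18-ps was covered by H3K27me3 to 80.6% and 65.8% and Klk1b14-ps to 36.4% and 21.2%. The Sprr pseudogenes Sprr2c-ps, Sprr2g and Sprr2j-ps had no peak in any library.

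Keratin genes, a further family of the epithelial barrier, carried H3K27me3 at 39 of 53 genes and H3K27ac at 22 of 53, with both marks at 18, against 38.9% and 67.5% of all genes and 6127 of 21887 with both. These were set beside the 21 of 26 and 2 of 26 Klk genes without a test. H3K27me3 fold enrichment was higher in replicate 1 at 17 and higher in replicate 2 at 4 of the 21 Klk genes with peaks in both libraries, as the list medians were (3.46 and 3.21).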
